A study of Homo sapiens with 6 samples.

Results

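Immediate early genes and the genes that feed back on ERK were followed in NCI-H929 cells, a human multiple myeloma line, after lowering of PRMT5, an enzyme that dimethylates arginines of histones and other proteins. The members were taken from a list of 34 gene symbols, drawn up with earlier results of these data known, and 32 of them were among the 18132 genes measured. EGR2 and BTG2 were not analysed here. Of the 6 Affymetrix arrays, 3 held RNA of cells with a lentivirus lowering PRMT5 (PRMT5_down) and 3 RNA of cells with a control lentivirus (control). Per the labels, both groups were stably transduced, and the protocol describes selection in puromycin and collection of both groups at the same time, to look for possible PRMT5 targets. The titles call the agents sponges, while the treatment protocol describes a short hairpin RNA in pLKO.1, and the protocol calls the comparison cells normal. Both groups carry replicate numbers 1 to 3. The labels do not state whether the replicates are separate cultures. Each p-value therefore speaks for the scatter of these 6 arrays alone, possibly a technical one, and 3 arrays per group limit the precision.

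Immediate early genes are switched on within minutes of a growth factor, cytokine or stress, without new protein synthesis, when ERK and related kinases phosphorylate factors already sitting on their promoters. Many encode transcription factors, such as the FOS and JUN subunits of AP-1, and their mRNAs decay fast. Others restrain the pathway that induced them: DUSP phosphatases take phosphate off ERK and its relatives, and Sprouty and SPRED proteins act upstream between receptor, RAS and RAF. In myeloma, mutated RAS genes often drive this pathway.

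Promoters of EGR1, DUSP1, JUND and MAFF are shown because they hold the serum and cAMP response sequences through which such genes are classically induced. Each is the 250 bases before the start site in RefSeq for GRCh38.p14, 5′ to 3′ on the gene's strand, at chr5:138465229-138465478 on the plus strand for EGR1, chr5:172771196-172771445 on the minus strand for DUSP1, chr19:18281623-18281872 on the minus strand for JUND and chr22:38201744-38201993 on the plus strand for MAFF. Capitals mark the 2 CArG boxes in the EGR1 window, the binding sequence of serum response factor. In the other promoters they mark the cAMP response element TGACGTCA.
EGR1: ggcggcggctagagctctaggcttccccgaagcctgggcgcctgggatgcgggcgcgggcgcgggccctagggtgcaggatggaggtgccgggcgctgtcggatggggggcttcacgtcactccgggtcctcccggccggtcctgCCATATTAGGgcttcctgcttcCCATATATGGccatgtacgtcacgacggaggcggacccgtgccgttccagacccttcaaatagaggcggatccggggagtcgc
DUSP1: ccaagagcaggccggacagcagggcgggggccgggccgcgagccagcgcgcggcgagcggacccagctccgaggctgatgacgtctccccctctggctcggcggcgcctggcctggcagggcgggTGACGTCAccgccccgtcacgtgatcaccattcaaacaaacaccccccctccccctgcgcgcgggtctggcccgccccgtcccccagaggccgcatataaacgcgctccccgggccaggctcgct
JUND: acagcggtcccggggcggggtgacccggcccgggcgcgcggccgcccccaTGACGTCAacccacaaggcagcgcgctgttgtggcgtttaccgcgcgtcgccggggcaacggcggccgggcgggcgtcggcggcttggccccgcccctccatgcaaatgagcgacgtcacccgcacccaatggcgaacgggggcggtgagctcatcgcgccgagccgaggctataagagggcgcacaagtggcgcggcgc
MAFF: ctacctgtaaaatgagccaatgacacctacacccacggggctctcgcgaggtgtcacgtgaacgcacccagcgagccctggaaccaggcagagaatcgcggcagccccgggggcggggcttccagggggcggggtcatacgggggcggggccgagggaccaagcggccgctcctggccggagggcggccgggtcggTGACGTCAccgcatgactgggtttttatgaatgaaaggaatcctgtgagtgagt

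The windows of 25 analysed members were found in RefSeq, 30 windows in all, and both strands were searched. The CArG box was in 1.16% of the 35116 human promoters. Among the members with a window it was in EGR1 alone, starting 105 and 83 bases before the start site. TGACGTCA was in 1.65% of promoters and in 3 members, 125 bases before the start of DUSP1, 200 before that of JUND and 54 before that of MAFF. The EGR sequence GCGNGGGCG was in 8.41% of promoters and in 7 members: EGR1 itself, DUSP2, KLF2, KLF4, KLF6, SPRY2 and SPRY4. The ETS sequence CCGGAAG was in 8.52% of promoters and in IER2 among the members, and the AP-1 sequence TGANTCA was in 6.57% and in 0 members. No matches of different motifs overlapped in these windows. A match describes letters in the window and shows no binding. Bases farther upstream and members without a window were not searched, so a missing match does not show that a gene lacks the sequence.

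The values are log2 signals, so 1 unit is a factor of 2, and the array medians lay between 5.29 and 5.32. PRMT5 had signals of 8.63, 9.65 and 9.37 in PRMT5_down, against 9.93, 10.35 and 10.30 in control, and stood at 40.6%, 61.6% and 52.5% of its control within numbers 1, 2 and 3. It was lower in all 3 numbers and the groups did not overlap, but it did not pass the test over all genes (limma adjusted p = 1, and 0.21 with the replicate number as a block). Of 10 plasma cell markers, XBP1, PRDM1 and SDC1 were above background on all 6 arrays and the other 7, CD38, TNFRSF17 and IRF4 among them, were above it on none, so most defining markers of the labelled cell type could not be seen. The list averaged 4.33, 4.33 and 4.46 in PRMT5_down and 4.45, 4.39 and 4.51 in control. Of 9 erythroid and megakaryocyte markers, 8 were above background on all 6 arrays, with TFRC, KLF1 and GATA1 highest, and the list averaged 8.43, 8.28 and 8.52 in PRMT5_down, against 8.07, 7.88 and 8.07 in control. The mean of the erythroid list was higher in PRMT5_down within each number, led by AHSP with a difference of 1.58 (SE 0.58) and SLC4A1 with 1.00 (SE 0.36). TFRC differed by 0.53, KLF1 and GATA1 by 0.14 each, ITGA2B by -0.09 and PF4 by -0.18, and none of the 9 passed. The part of these genes in the results below was not tested. Most plasma cell markers thus did not bear out the label, while erythroid ones were high in both groups. The identity of the cells was not tested. Of 9 myeloid markers, 2 were above background on all 6 arrays, and the list averaged 4.24, 4.29 and 4.33 in PRMT5_down and 4.22, 4.33 and 4.42 in control.

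Most members were measured above background. A gene was taken as above background on an array when its signal passed the 95th percentile of 341 olfactory receptor genes there, which lay between 4.88 and 4.98. By that measure 26 of 32 members were above background on all 6 arrays. The phosphatase genes DUSP2, DUSP4 and DUSP6, the orphan nuclear receptor gene NR4A3 and the transcription factor gene KLF4 were above it on no array. EGR3 was above it on 1 array.

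No member passed the test between PRMT5_down and control. An adjusted p under 0.05 in limma was reached by 0.0% of the 18132 genes tested and by 0 of 32 members. At an unadjusted p under 0.05 stood 0.822% of all genes and again 0 members. This fit had no block, so differences between replicate numbers stayed in its error and widened the SE of members that differed between numbers. It says little about small differences within the numbers. Of the 32 members, 14 had a higher mean in PRMT5_down, 17 a lower one, and KLF4 had a difference of 0.00. Their median log2 difference was -0.01, against -0.02 over all genes. In bulk samples fewer cells of a type and less RNA per cell cannot be told apart.

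Within the replicate numbers, a few members differed by small amounts in the same direction each time. Taking the number as a block narrowed the errors and still left 0 of 32 members past an adjusted p under 0.05, against 0.0% of all genes. At an unadjusted p under 0.05 in that fit were 3 members, PHLDA1, DUSP1 and ETV5, or 9.38%, beside 8.25% of all genes. PRMT5_down was higher within all 3 numbers for 3 members, IER5, DUSP1 and PHLDA1 (9.38%, beside 11.7% of all genes). It was lower within all 3 for 5 members, FOSB, FOSL1, EGR3, SPRY4 and ETV5 (15.6%, beside 15.2% of all genes). These shares lay near those of all genes. Each is read from a gene's brightest probe set. Among other probe sets above background on all 6 arrays, the same direction within all 3 numbers held for 5 of 5 of FOSL1, 2 of 3 of ETV5, 1 of 2 of DUSP1, 0 of 1 of IER5 and 0 of 3 of PHLDA1.

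**Figure D1:**
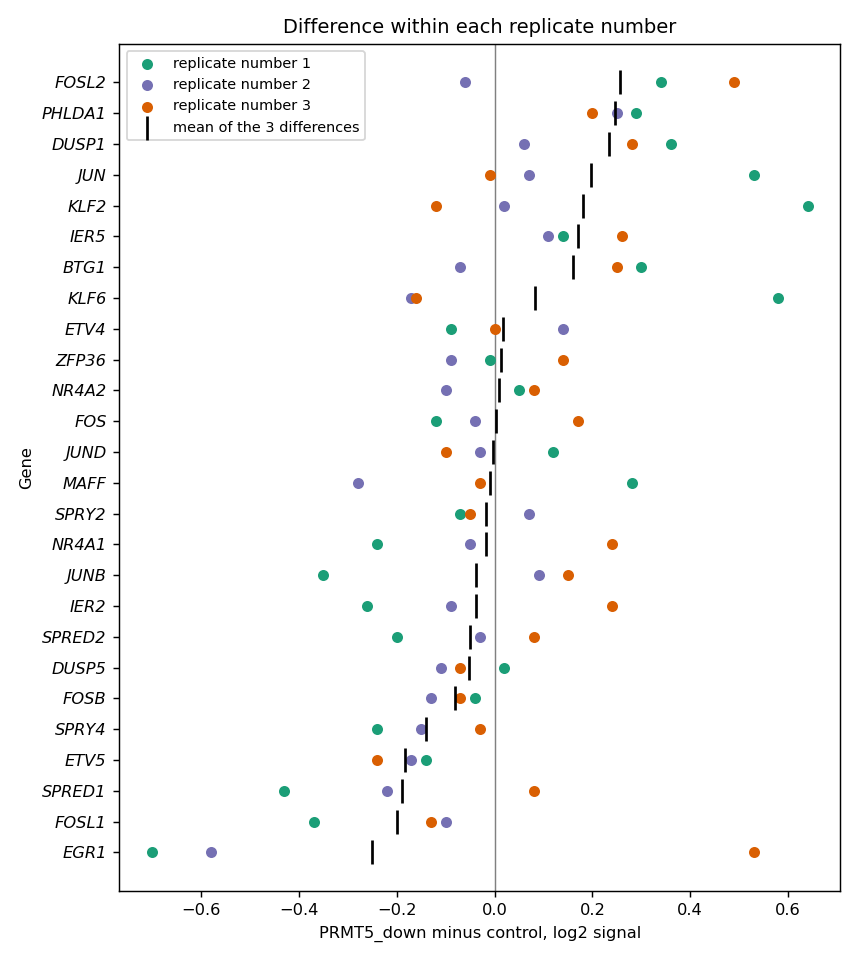
Difference in log2 signal, PRMT5_down minus control, within replicate numbers 1, 2 and 3 for the 26 members above background on all 6 arrays, ordered by the mean difference (black bar). Each gene is its brightest probe set. By that one PHLDA1 lies right of 0 in all 3 numbers at 0.29, 0.25 and 0.20, and EGR1 spans both sides from -0.70 to 0.53.

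Instead, members passed a test between the replicate numbers, taken over both groups together. In a fit with group and number, a moderated F test on number passed for 17 of 32 members (53.1%) at a limma adjusted p under 0.05, against 35.1% of all genes. Among genes above background on all 6 arrays it passed for 17 of 26 members (65.4%), against 54.8% of all such genes. With any 1 array left out the fit kept 1 residual degree of freedom and no gene passed, while 12 to 17 members stayed at an unadjusted p under 0.05, against 18 with all arrays. The range between the means of the highest and the lowest number had a median of 0.59 over the 26 members and 0.45 over all such genes. What a number shares, such as a culture or a day, is not in the labels, and whether the difference between groups varies by number cannot be tested with 1 array of each kind.

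**Figure D2:**
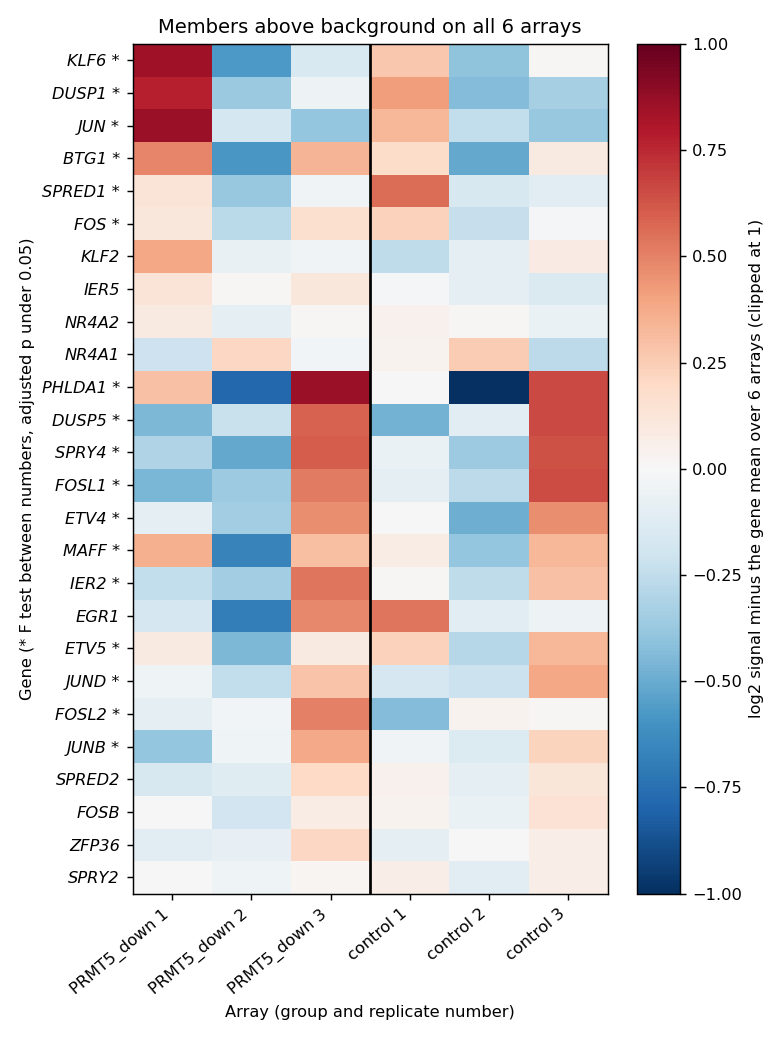
Log2 signal of each member above background on all 6 arrays, minus the gene's mean over the 6 arrays, with the PRMT5_down arrays left of the control arrays and red for higher. Stars mark the 17 members that differed between numbers at a limma adjusted p under 0.05. The same numbers are red or blue on both sides of the line for most starred genes.

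Number 2 was the low one for most of them. Of the 17 members that passed, number 2 was lowest for 13 (40.6% of the 32 members, against 8.38% of all genes that passed with number 2 lowest) and highest for 0 (9.19% of all genes). Number 3 was highest for 11 (34.4%, against 12.9% of all genes) and number 1 for 6 (18.8%, against 13.0%). Number 1 was lowest for FOSL2, JUNB and DUSP5 (9.38%, against 12.9%), and number 3 for JUN (3.12%, against 13.8%). In single contrasts number 1 was above number 2 for 10 members (31.2%, against 9.11% of all genes) and below it for 0 (9.0% of all genes). Number 3 was above number 2 for 10 members (31.2%, against 9.02%) and below it for 0 (10.1%). Number 3 was above number 1 for 9 members (28.1%, against 14.5%) and below it for 4 (12.5%, against 14.8%). The shares of all genes in these comparisons include dim genes, while 26 of the 32 members were above background on all 6 arrays. The F test passed for 35.1% of all genes and for 54.8% of those above background. Of all genes, dim ones included, 1519 passed with number 2 lowest, beside 10253 genes above background on all 6 arrays. How much of these gaps goes with signal level was not tested. Genes are not independent replicates, so these counts describe the arrays.

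**Figure D3:**
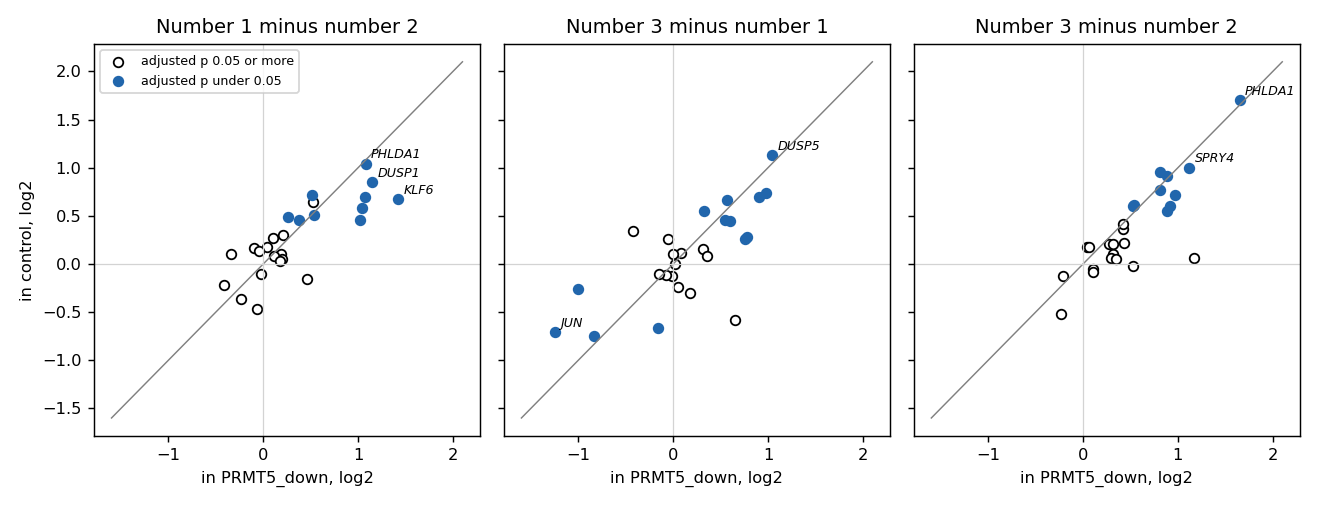
Difference in log2 signal between replicate numbers, in PRMT5_down (horizontal axis) and in control (vertical axis), for the 26 members above background on all 6 arrays. The line marks equal differences, and filled points passed that contrast at a limma adjusted p under 0.05. PHLDA1 stands at 1.65 in PRMT5_down for number 3 minus number 2 and lies next to the line.

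Across the 26 members, the differences in PRMT5_down and in control correlated at r = 0.80 for number 1 minus number 2, 0.71 for number 3 minus number 1 and 0.83 for number 3 minus number 2. The same r over the 10253 genes above background was 0.85, 0.85 and 0.80. These describe points that share arrays. The order of the 3 numbers was the same in both groups for 13 of 32 members (40.6%), against 37.1% of all genes. All 13 were among the 26 above background (50.0%), where the share over all genes was 50.3%.

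Of the AP-1 subunits, all above background on all 6 arrays, 6 of 7 (85.7%) differed between numbers. The share was 35.1% of all genes and 54.8% of those above background. None passed between groups, against 0.0% of all genes. FOSL1, a FOS-related subunit that stays on under lasting ERK activity, had signals of 6.88, 6.98 and 7.86 in PRMT5_down and 7.25, 7.08 and 7.99 in control. The number 3 arrays stood above all the others in both groups, by 0.86 over number 1 and 0.90 over number 2 (limma adjusted p = 0.0013 and 0.0023). FOSL1 was lower in PRMT5_down within each number, by differences of -0.37, -0.10 and -0.13, with a mean of -0.20 (SE 0.35, limma adjusted p = 1). With the number as a block its SE was 0.09, its unadjusted limma p 0.055 and its adjusted p 0.61.

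JUN ran the other way. It had 8.99, 7.95 and 7.74 in PRMT5_down and 8.46, 7.88 and 7.75 in control, so number 1 was highest in both groups. Number 3 minus number 1 was -1.25 in PRMT5_down and -0.71 in control, -0.98 over both (limma adjusted p = 0.002). Between the groups, whose values overlapped, JUN differed by 0.20 (SE 0.37, limma adjusted p = 1). By its brightest probe set number 1 carried that difference, with 0.53, against 0.07 in number 2 and -0.01 in number 3. The other probe sets of JUN, all above background on all 6 arrays, had 0.60, 0.04 and 0.45 in number 1. Their mean differences were 0.17, -0.08 and 0.17.

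JUND, whose promoter with TGACGTCA is shown above, had 8.10, 7.90 and 8.43 in PRMT5_down and 7.98, 7.93 and 8.53 in control. Number 3 was highest in both groups, and the numbers spanned 0.56 (limma F test, adjusted p = 0.0084). JUNB spanned 0.51 (adjusted p = 0.043) with number 3 highest. FOS spanned 0.42 (adjusted p = 0.038) with number 1 highest by the mean of both groups. In PRMT5_down alone FOS was highest in number 3, at 6.58 against 6.53 in number 1. Its 4 probe sets, all above background, spanned 0.42 to 1.31. For FOSL2, signals were 5.50, 5.57 and 6.10 in PRMT5_down and 5.16, 5.63 and 5.61 in control. Its number 3 was above number 1 by 0.52 (limma adjusted p = 0.024), and the F test on number gave an adjusted p of 0.049. The calls of FOS and FOSL2 were lost under another setting, to adjusted p of 0.052 with a trended, robust variance and 0.075 after a further quantile normalization.

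FOSL2 also had the highest difference between groups of the members above background, 0.26 (SE 0.21, limma adjusted p = 1), with overlapping groups. That value is from its brightest probe set. A dimmer one, above background on 5 arrays, differed by 0.68, and another, which was not above background on any, by 0.89. The last 2 of its 5 probe sets, likewise below background throughout, had differences of 0.04 and -0.02. FOSB had 6.06, 5.87 and 6.14 in PRMT5_down and 6.10, 6.00 and 6.21 in control. It was lower in each number by at most 0.13 and passed neither test, with a limma F test adjusted p of 0.20.

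Among the EGR, KLF and NR4A factors, the IER genes and MAFF, 3 of 11 (27.3%) differed between numbers, against 35.1% of all genes. KLF6, a zinc finger factor, had 9.18, 7.76 and 8.18 in PRMT5_down and 8.60, 7.93 and 8.34 in control. Its number 1 was highest and number 2 lowest in both groups, 1.04 apart (limma adjusted p = 0.0069). The step was 1.42 in PRMT5_down and 0.67 in control, and within number 1 PRMT5_down was higher by 0.58, while in numbers 2 and 3 it was lower by differences of -0.17 and -0.16. MAFF, a small basic leucine zipper protein whose promoter holds TGACGTCA, had 6.59, 5.57 and 6.54 in PRMT5_down and 6.31, 5.85 and 6.57 in control. Number 2 was lowest in both groups, and the numbers spanned 0.84 (limma F test, adjusted p = 0.0046). IER2, an immediate early nuclear protein, had signals between 9.93 and 10.81 in PRMT5_down and between 10.02 and 10.57 in control, with number 3 highest and a span of 0.72 (limma F test, adjusted p = 0.0092).

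EGR1, the zinc finger factor with the CArG boxes shown, passed neither test by its brightest probe set and differed in opposite directions within the numbers. Its signals were 10.02, 9.50 and 10.67 in PRMT5_down and 10.72, 10.08 and 10.14 in control. PRMT5_down was lower in number 1 by a difference of -0.70, lower in number 2 by -0.58 and higher in number 3 by 0.53. The mean difference was -0.25 (SE 0.33, limma adjusted p = 1), and the F test on number gave an adjusted p of 0.17 for a span of 0.61. With its most variable probe set EGR1 did pass between numbers, with a span of 0.995 (limma F test, adjusted p = 0.038). EGR1 had 6 probe sets, all above background, and 6 of 6 were lower in numbers 1 and 2 and higher in number 3. Their differences lay between -0.98 and -0.39 in number 1, between -0.58 and -0.12 in number 2 and between 0.46 and 0.66 in number 3. Probe sets of a gene read the same RNA on the same arrays and are not replicates.

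FOS showed the same signs on 4 of 4 probe sets, at -0.87 to -0.12, at -0.22 to -0.01 and at 0.17 to 0.77 in numbers 1, 2 and 3. In all, 8 of 32 members (25.0%) were lower in numbers 1 and 2 and higher in number 3, beside 9.6% of all genes: FOS, EGR1, IER2, DUSP4, NR4A1, ZFP36, SPRED1 and SPRED2. Each of the 8 is read from its brightest probe set. Over all probe sets the pattern held in 3 of 7 of NR4A1, 2 of 5 of SPRED1 and 1 of 3 of SPRED2. IER2, DUSP4 and ZFP36 had 1 probe set each, and that of DUSP4 was above background on no array. The pattern was picked after the values were seen and has no test.

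**Figure D4:**
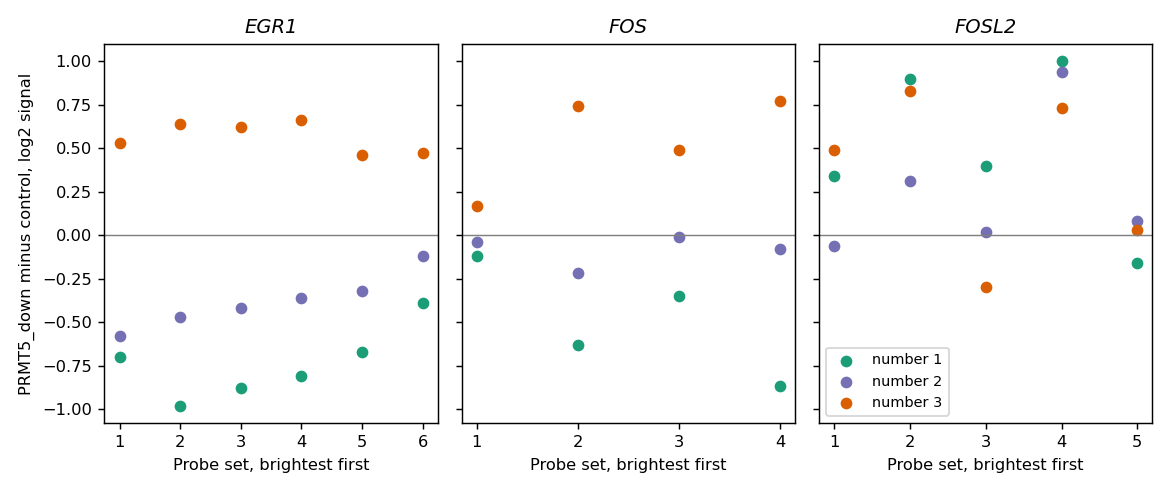
Difference in log2 signal, PRMT5_down minus control, within replicate numbers 1, 2 and 3 for each probe set of EGR1, FOS and FOSL2, brightest probe set left. All EGR1 and FOS probe sets are below 0 in numbers 1 and 2 and above it in number 3, while those of FOSL2 differ among themselves.

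IER5, an immediate early gene linked to heat shock factor activity, was the member whose groups did not overlap (1 of 32, 3.12%, beside 3.92% of all genes). It had 9.28, 9.17 and 9.27 in PRMT5_down and 9.14, 9.06 and 9.01 in control, means of 9.24 ± 0.06 and 9.07 ± 0.07 (SD, n = 3 each). The difference of 0.17 (SE 0.08) did not pass (limma adjusted p = 1), and IER5 did not pass between numbers either (limma F test, adjusted p = 0.75). These values are from its brightest probe set. By another probe set of IER5, also above background on all 6 arrays, the groups overlapped and differed by 0.08. KLF2, a factor of quiescent lymphocytes and endothelium, had 6.69, 6.23 and 6.27 in PRMT5_down and 6.05, 6.21 and 6.39 in control. Its difference of 0.18 (SE 0.16) was highest in number 1, at 0.64, with 0.02 in number 2 and -0.12 in number 3. Its other probe set, also above background on all 6 arrays, differed by -0.09, with 0.00 in number 1, and the mean of both gave 0.043. NR4A1, an orphan nuclear receptor induced by antigen receptors, spanned 0.37 between numbers and NR4A2 0.10, and neither passed.

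Of the 5 DUSP genes, DUSP1 and DUSP5 were above background on all 6 arrays, and both differed between numbers, in different orders. DUSP1, a nuclear phosphatase that acts on p38 and JNK as well as ERK, had 8.07, 6.92 and 7.24 in PRMT5_down and 7.71, 6.86 and 6.96 in control. Number 1 was highest in both groups, by 1.15 over number 2 in PRMT5_down and by 0.85 in control (1.00 over both, limma adjusted p = 0.0014). DUSP5, a nuclear phosphatase selective for ERK, had 6.17, 6.40 and 7.21 in PRMT5_down and 6.15, 6.51 and 7.28 in control. There number 3 was highest, by 1.04 over number 1 in PRMT5_down and by 1.13 in control (1.08 over both, limma adjusted p = 0.00061).

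Between the groups DUSP5 differed by -0.05 (SE 0.38). DUSP1 was higher in PRMT5_down within each number, by 0.36, 0.06 and 0.28, with a mean of 0.23 (SE 0.36, limma adjusted p = 1). With the number as a block its SE was 0.09 and its unadjusted p 0.032, and it did not pass there either (limma adjusted p = 0.59). DUSP6, a cytoplasmic phosphatase often read as a gauge of ERK output, stayed between 3.26 and 3.31 in the means of the numbers and lay under background, so no difference could be seen at this signal.

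The list of Sprouty and SPRED inhibitors, ETS factors and PHLDA1 held the member with the widest range between numbers. PHLDA1, an ERK-induced gene of the pleckstrin homology-like family, had 8.23, 7.15 and 8.80 in PRMT5_down and 7.94, 6.90 and 8.60 in control. In both groups number 3 was highest and number 2 lowest. The numbers spanned 1.68, a factor of 3.19 (limma F test, adjusted p = 0.00037), and each of the 3 contrasts passed, at 1.06 for number 1 minus number 2, 0.62 for number 3 minus number 1 and 1.68 for number 3 minus number 2. Beside this, PRMT5_down was higher within the numbers by 0.29, 0.25 and 0.20, a mean of 0.25 (SE 0.57, limma adjusted p = 1). With the block the SE was 0.08 and the unadjusted p 0.014, the smallest of any member in that fit, and the adjusted p was 0.56. Its 4 probe sets gave mean differences between 0.25 and 0.31, but the 3 dimmer ones, all above background, were lower in number 2, by differences of -0.12, -0.03 and -0.18. The one direction within all 3 numbers thus rests on the brightest probe set.

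SPRY4, an inhibitor of receptor tyrosine kinase signalling, had 7.44, 7.23 and 8.35 in PRMT5_down and 7.68, 7.38 and 8.38 in control. Its number 3 was above number 2 by 1.12 in PRMT5_down and 1.00 in control (1.06 over both, limma adjusted p = 0.0013). Within the numbers PRMT5_down was lower by differences of -0.24, -0.15 and -0.03, a mean of -0.14 (SE 0.38, limma adjusted p = 1). With the number as a block the SE was 0.08, the unadjusted limma p 0.13 and the adjusted p 0.66. SPRED1, which brings neurofibromin to RAS, had 6.22, 5.71 and 6.06 in PRMT5_down and 6.65, 5.93 and 5.98 in control, with number 1 highest and number 2 lowest in both groups. The span of 0.62 passed (limma F test, adjusted p = 0.019) but not with the mean of its probe sets (adjusted p = 0.16). SPRY2 spanned 0.12 and SPRED2 0.26, and neither passed.

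ETV4 and ETV5 encode PEA3 factors, whose mRNAs follow ERK activity. ETV4 had 8.14, 7.88 and 8.69 in PRMT5_down and 8.23, 7.74 and 8.69 in control, with number 3 above number 2 by 0.88 (limma adjusted p = 0.0022). Its groups differed by 0.02 (SE 0.30). ETV5 had 9.09, 8.55 and 9.09 in PRMT5_down and 9.23, 8.72 and 9.33 in control, and its number 2 was lowest in both groups, by 0.57 against number 3 (limma adjusted p = 0.0067). ETV5 was lower in PRMT5_down within each number, by differences of -0.14, -0.17 and -0.24, a mean of -0.18 (SE 0.22, limma adjusted p = 1). With the block its unadjusted p was 0.049 and its adjusted p 0.60.

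BTG1 and ZFP36 act on growth and mRNA decay. BTG1, an antiproliferative partner of the deadenylase complex that is often mutated in B cell lymphoma, had 10.74, 9.67 and 10.59 in PRMT5_down and 10.44, 9.74 and 10.34 in control. Number 2 was lowest in both groups, and number 1 was above it by 0.88 (limma adjusted p = 0.0027). ZFP36, which binds AU-rich mRNAs of immediate early genes and cytokines, spanned 0.23 and did not pass (limma F test, adjusted p = 0.23).

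**Figure D5:**
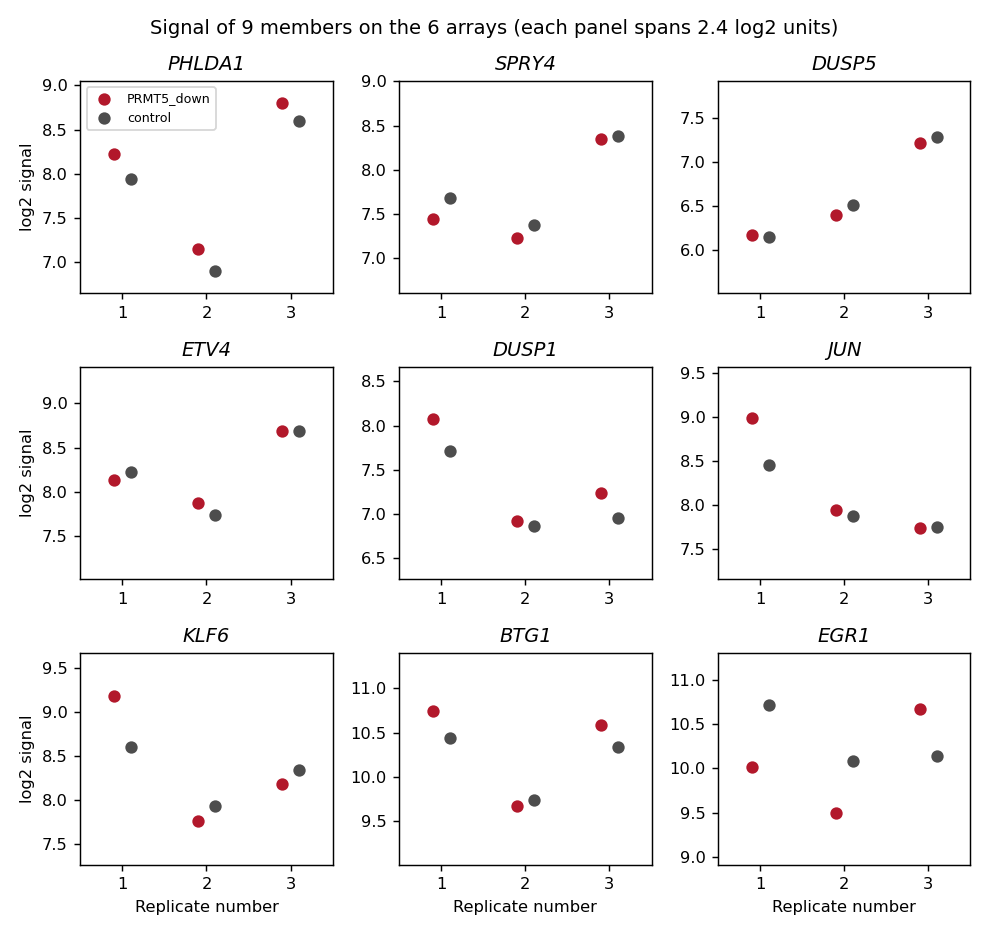
Log2 signal of 9 members on the 6 arrays by replicate number, PRMT5_down in red and control in grey, each panel spanning the same number of log2 units. PHLDA1 reaches 8.80 in PRMT5_down and 8.60 in control at number 3, the 2 groups lie close within each number for the other members in the upper row, and EGR1 has PRMT5_down below control at numbers 1 and 2 and above it at number 3.

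Other probe sets of the members mostly gave the same picture. For 11 of the 17 members that differed between numbers, another probe set was above background on all 6 arrays. Of those 25 probe sets, 21 had the same highest and the same lowest number. Of 40 other member probe sets above background, 33 had the same sign of PRMT5_down minus control as the brightest one of their gene.

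The pathway around the members was read from lists written with earlier results of these data known. Of 19 genes of the ERK cascade, from RAS and its exchange factors to ERK, 0 passed between groups, 9 were higher and 10 lower in PRMT5_down, and 12 (63.2%) differed between numbers, against 35.1% of all genes and 54.8% of those above background on all 6 arrays. RASGRP2, a calcium-responsive RAS and RAP exchange factor, had 6.17, 6.03 and 6.89 in PRMT5_down and 5.75, 5.18 and 6.32 in control, higher within each number. Its difference of 0.61 (SE 0.35) did not pass (limma adjusted p = 1, and 0.25 with the number as a block). NF1, a RAS inactivator, spanned 0.96 between numbers with number 1 highest, and HRAS spanned 0.79 with number 3 highest.

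Of 16 kinases and factors that link ERK to the immediate early genes, 0 passed between groups and 12 (75.0%) differed between numbers, against the same 35.1% and 54.8%, and 14 of these 16 genes passed background on every array. CREM, which binds cAMP response elements, had 10.54, 8.74 and 9.69 in PRMT5_down and 9.90, 8.75 and 9.10 in control. Number 1 was highest and number 2 lowest in both groups. The CREM span was 1.48, a factor of 2.78. ELK1, the serum response factor partner phosphorylated by ERK, spanned 0.83 with number 3 highest and number 2 lowest (limma F test, adjusted p = 0.0018).

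Of 45 other immediate early and feedback genes, 0 passed between groups and 23 (51.1%) differed between numbers, again against 35.1% and 54.8%. Of these 45, 14 passed with number 2 lowest, against 8.38% of all genes, dim ones included. IER3, a stress-induced survival gene, had 7.86, 8.45 and 10.35 in PRMT5_down and 8.17, 8.50 and 10.39 in control. Its number 3 was highest, and its span of 2.36, a factor of 5.12, exceeded that of every member (limma F test, adjusted p = 0.00018). ATF3, a stress-induced factor of the CREB family, had 10.62, 8.39 and 8.47 in PRMT5_down and 9.88, 8.63 and 8.47 in control, with number 1 highest and a span of 1.78.

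Heat shock genes followed the numbers in another order. Of 10 heat shock and handling stress genes, all above background, 9 differed between numbers, against 54.8% of all genes above background. Number 2 was highest for 8 of them, against 9.19% of all genes, dim ones included, that passed with number 2 highest. The mean of the list was 9.61, 10.37 and 10.14 in PRMT5_down and 9.69, 10.41 and 9.94 in control. HSPA1B, an inducible HSP70 chaperone, had 7.61, 9.19 and 9.06 in PRMT5_down and 7.98, 9.22 and 8.70 in control. The mean of all 32 members was 7.08, 6.79 and 7.22 in PRMT5_down and 7.07, 6.85 and 7.16 in control, lowest in the number where the heat shock list was highest. The part of handling stress in the members' differences between numbers was not tested.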

How the data were processed

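RNA of 3 PRMT5_down and 3 control cell samples was hybridised to 1 Affymetrix array each. The authors deposited log2 signals per probe set, made with RMA per the submitters' processing notes. Its software version is not given in the sources used here, nor is the chip definition. Since RMA gives all arrays 1 distribution, it would hide a shift that most genes share. Values have 2 decimals and were not normalized further.

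Among the 49372 probe sets were 79 controls, and 44988 carried 1 gene symbol, 1832 several and 2473 no symbol here. Gene identifiers gave 44961 of them a current symbol. The brightest probe set with a single symbol stands for each of 18132 genes, dim ones included. Limma 3.58.1 under R 4.3.3 (lmFit, eBayes, Benjamini-Hochberg over all genes, threshold 0.05) compared the groups without a block, and the numbers in a fit with group and number, which left 2 residual degrees of freedom. Same-numbered arrays deviated together from their group means, with r = 0.82, 0.72 and 0.79 across genes where 0.1 was the minimum asked. They were treated as pairs in the differences within numbers and in the fit with the block, but not in the planned group test. The data give this pairing and the labels do not.

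The members and the lists were chosen with earlier results of these data known. Values on every array are given for members above background with the 12 smallest p in either fit. Of other lists, up to 4 genes with the smallest p are named, and of marker lists the 3 highest signals. Values of FOS, JUNB and IER2 beyond this rule, and of CD38, TNFRSF17, IRF4, AHSP, SLC4A1, ITGA2B and PF4, were picked after they were seen. Alternatives covered normalization, dim genes, probe set choice, variance model, array weights, the block and left-out arrays.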

Additional observations from a re-analysis of the deposited data

How the results depend on the processing

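With all 6 arrays, 14 of the 17 members that differed between numbers passed under every setting tried, and FOS, FOSL2 and SPRED1 each lost the call under 1. With the most variable probe set of each gene, EGR1 (span 0.995, limma adjusted p = 0.038) and NR4A1 (span 0.455, adjusted p = 0.036) passed as well, and with the mean of probe sets KLF4 did (span 0.335, adjusted p = 0.036). With 1 array left out the fit on numbers called 0 genes and 0 members. Dim signals limit DUSP2, DUSP4, DUSP6, NR4A3, KLF4 and EGR3, and with the 99th percentile of olfactory receptor genes as background 15 members were above it on all arrays.

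Between PRMT5_down and control, the replicate block (number as block) gave an unadjusted p under 0.05 for 3 members, against 0 without it, and no adjusted call changed. With the most variable probe set it was 1 member. A block with a trended, robust variance, chosen after seeing the data, called 3 genes, PRMT5 among them (-0.98, limma adjusted p = 0.029), and left 2 members at an unadjusted p under 0.05. PRMT5 lay between -1.19 and -0.68 with 1 array left out.

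No member's difference between groups passed, so the signs that turned are of values near 0 beside their error, and the cause was not tested. They turned for FOS (-0.007) and ETV4 (-0.001) after a further quantile normalization, and for FOS (-0.012), DUSP6 (-0.016) and NR4A3 (0.022) with the mean of probe sets. With the most variable probe set they turned for FOS (-0.06), JUN (-0.08), EGR3 (0.027), NR4A2 (-0.037) and NR4A3 (0.12). With array weights they turned for FOS (-0.092), JUN (-0.021), JUNB (0.041), JUND (0.012), DUSP1 (-0.03), DUSP5 (0.062), NR4A2 (-0.048), KLF6 (-0.17) and BTG1 (-0.053). With 1 array left out 23 members turned for some array, with ranges of -0.11 to 0.14 for FOS, -0.51 to 0.075 for FOSL1, -0.18 to 0.44 for JUN, -0.23 to 0.15 for JUNB, -0.15 to 0.19 for JUND, -0.55 to 0.032 for EGR1, -0.31 to 0.13 for IER2, -0.10 to 0.50 for DUSP1, -0.032 to 0.15 for DUSP4, -0.36 to 0.26 for DUSP5 and -0.007 to 0.048 for DUSP6. The ranges were -0.15 to 0.11 for NR4A1, -0.033 to 0.057 for NR4A2, -0.32 to 0.39 for KLF6, -0.087 to 0.068 for ZFP36, -0.057 to 0.49 for BTG1, -0.077 to 0.013 for SPRY2, -0.48 to 0.14 for SPRY4, -0.32 to 0.042 for SPRED1, -0.16 to 0.017 for SPRED2, -0.22 to 0.25 for ETV4, -0.21 to 0.70 for PHLDA1 and -0.21 to 0.32 for MAFF.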

Other observations

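Of 11 genes for p38, JNK and ERK5 kinases, which also reach immediate early genes, 2 were higher and 9 lower in PRMT5_down, beside 7845 higher and 10056 lower of all 18132 genes, and 3 of the 11 were above background on no array. That count has no test. Of the 11, 0 passed limma at an adjusted p under 0.05 in the planned fit and with the replicate block, where 1 had an unadjusted p under 0.05. That gene was MAP2K5, the kinase of ERK5, whose differences were -0.48, 0.03 and -0.65 within numbers 1, 2 and 3. Between numbers 3 of the 11 (27.3%) differed, beside 53.1% of the members and 35.1% of all genes.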
